A study of Mus musculus with 6 samples.

Results

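Leptin, the hormone that adipocytes release in proportion to stored fat, is encoded by Lep. The gene was taken by its symbol and its identifier, ENSMUSG00000059201, and is 1 of the 3162 genes for which expression values were held in each library. Bulk RNA was sequenced from the white fat that surrounds the epididymis, a visceral depot (70 mg of tissue per mouse). Each of the 6 libraries is taken to be 1 mouse, which the labels do not state outright. All 6 mice were wild-type C57BL/6J males aged 16 weeks. The fed group (3 mice) had food as normal, and the fasted group (3 mice) went without food for 24 h. The labels name neither a batch nor the hour at which tissue was taken.

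Leptin is secreted into the blood and acts on the leptin receptor in the hypothalamus, where it restrains appetite and sustains energy expenditure. Mice that lack it overeat and become obese. In adipocytes Lep transcription is known to be raised by feeding and insulin and lowered by fasting and by adrenergic signals that act through cAMP, and the transcription factor C/EBPα binds the proximal promoter of the gene.

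On chromosome 6, Lep runs from 29060220 to 29073877 on the plus strand (GRCm38). The annotated transcript Lep-201 has 3 exons and a spliced length of 3259 bases, of which 501 are coding. Exon 1 (29 bases) is untranslated, exon 2 (175 bases) holds the start codon, and exon 3 (3055 bases) holds the stop codon and the 3' untranslated region. A shorter transcript, Lep-202, begins at an alternative first exon and has a spliced length of 420 bases. The deposited values are 1 per gene, so the share of each transcript is not known. None (0) of the other annotated genes, of any type and on either strand, overlaps Lep.

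The 250 bases upstream of the RefSeq start are shown for Lep, for Pnpla3, the gene whose fall was nearest to that of Lep in size, and for Phlda3, the gene whose pattern within the groups was most like that of Lep. Sequences are from RefSeq (GRCm38.p6), are written 5' to 3', and all lie on the plus strand: chr6:29059971-29060220 for Lep, chr15:84167566-84167815 for Pnpla3 and chr1:135765835-135766084 for Phlda3. Capitals mark matches on either strand to 6 motifs: the C/EBP palindrome TTGCGCAA, the GC box GGGCGG, the TATA motif TATAA, the NF-Y motif CCAAT, the E-box CACGTG bound by USF factors, and the sterol regulatory element core TCACNCCA.
Lep: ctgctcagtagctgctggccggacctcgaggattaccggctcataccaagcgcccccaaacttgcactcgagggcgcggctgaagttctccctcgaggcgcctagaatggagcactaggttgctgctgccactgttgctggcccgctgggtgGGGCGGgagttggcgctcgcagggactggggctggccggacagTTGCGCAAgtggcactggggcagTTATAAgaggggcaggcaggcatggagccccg
Pnpla3: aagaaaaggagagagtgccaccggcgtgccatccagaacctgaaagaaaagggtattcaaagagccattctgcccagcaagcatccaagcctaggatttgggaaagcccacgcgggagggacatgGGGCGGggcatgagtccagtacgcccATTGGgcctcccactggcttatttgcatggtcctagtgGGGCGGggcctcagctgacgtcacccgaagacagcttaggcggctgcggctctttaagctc
Phlda3: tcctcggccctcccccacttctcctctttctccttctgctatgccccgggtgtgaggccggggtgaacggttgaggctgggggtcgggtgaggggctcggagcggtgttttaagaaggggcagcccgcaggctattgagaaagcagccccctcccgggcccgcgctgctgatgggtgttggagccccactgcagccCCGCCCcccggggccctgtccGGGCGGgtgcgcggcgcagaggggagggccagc

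The Lep window held the C/EBP palindrome at positions -55 to -48 from the start, a GC box at -98 to -93, and TATAA on both strands, at -31 to -27 on the plus strand and overlapping it at -32 to -28 on the minus strand. It held no match to the NF-Y motif, the E-box or the sterol regulatory element core. Pnpla3 had 2 GC boxes and 1 CCAAT, and Phlda3 had 2 GC boxes. The palindrome was in 54 of the 32851 upstream windows of this length in the RefSeq table (0.164%), against 32.7% for the GC box, 22.8% for TATAA, 33.8% for the NF-Y motif, 6.02% for the E-box and 3.67% for the sterol regulatory element core. Of the 3158 genes held with a symbol, 2450 matched the table by symbol. Among genes tested below, 9 had the palindrome upstream. Lep itself, Orm2, Pnp, Eif4g1, Commd1 and Man1b1 were lower in fasted tissue, Dnajb6 and Smad6 were higher, and Mpc2 was not called. The shares over all tested genes were 49.4% lower and 41.1% higher. Commd1 and Dnajb6 had 2 upstream windows each, and a match in either was counted. Among these carriers, Lep aside, log2 fold changes ran from -1.31 (Orm2) to 0.95 (Smad6). No tested gene had a deeper fall than Lep, so its place beyond the other carriers was fixed before the comparison. These 9 were chosen by sequence, and a match is a description of the letters in this window.

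Values are FPKM, fragments scaled to transcript length in kilobases and to the total of mapped fragments, so they are scaled to gene length and can be set beside each other between genes. Summed FPKM over the genes held was 190382 to 209201 in fed and 180058 to 188061 in fasted libraries. These sums are not depths, which are unknown, and no counting interval is given. Why these genes are the ones held is not stated by the labels or headers, and fed and fasted values did not overlap in 2953 of the 3162 (93.4%). Of 2999 genes tested by limma (mean over the 6 libraries of 1 FPKM or more), 2714 had an adjusted p under 0.05 (90.5%), 1482 of them lower in fasted tissue (49.4%) and 1232 higher (41.1%). A count of genes in any list below has to be read against these shares, since a list drawn at random from such a table would be mostly called.

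Lep was high in every fed library and low in every fasted one. It was 335.74, 691.18 and 263.68 FPKM in fed replicates 1, 2 and 3. In fasted replicates 1, 2 and 3 it was 12.72, 5.32 and 20.23 FPKM. The groups did not overlap: the lowest fed value was 13.0 times the highest fasted value. The mean went from 430 ± 229 FPKM in fed to 12.8 ± 7.46 FPKM in fasted tissue (mean ± SD, n = 3 per group), a ratio of means of 33.7. On the log2(FPKM + 1) scale, used for every log2 fold change here (fasted minus fed), the change was -5.01 ± 0.49 (SE; limma, Benjamini-Hochberg adjusted p = 0.000565). When each annotated gene without a tested value was given the largest possible p, the adjusted p of Lep was 0.0105. Under this adjustment 192 of the 2999 genes were lower in fasted tissue at an adjusted p under 0.05 (6.4%). An exact two-sided permutation test on Lep alone gave p = 0.1, the smallest that 3 against 3 libraries allow. Because the values come from bulk tissue, fewer adipocytes and less Lep RNA per adipocyte cannot be told apart from the level of Lep alone.

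**Figure D1:**
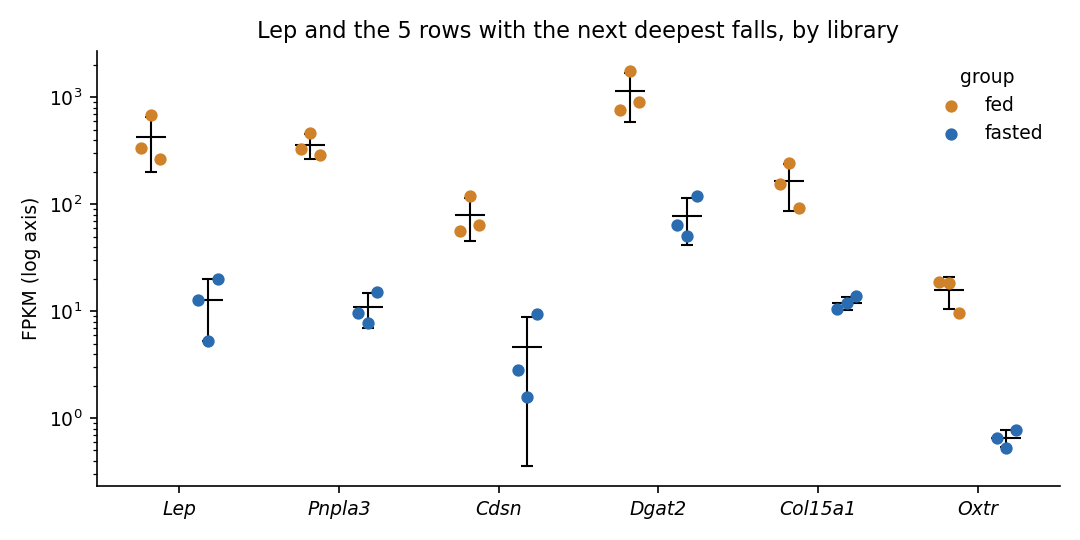
FPKM on a log axis for Lep and the 5 genes with the next deepest falls, 1 point per library, with horizontal bars at the group mean and error bars of 1 SD (n = 3 per group). Genes without a symbol and those with Gm or Rik names were left out of this choice. Fed Lep sat between 263.68 and 691.18 FPKM and fasted Lep between 5.32 and 20.23, and the 2 groups were also apart for each of the other 5 genes.

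In fed tissue Lep was among the more abundant of the genes held, and in fasted tissue it was near the middle. By mean FPKM it ranked 89 of 3162 when fed and 1659 when fasted. Its rank was 111, 46 and 154 in fed replicates 1, 2 and 3, and 1713, 2337 and 1249 in fasted replicates 1, 2 and 3. Its share of the summed FPKM was 0.133% to 0.330% in fed and 0.00288% to 0.0112% in fasted libraries. Next to it in fed tissue were the ribosomal protein genes Rpl7 and Rpl24 just above, and Rarres2, encoding the adipokine chemerin, just below. Rarres2 went from 428 ± 114 to 233 ± 39.8 FPKM, and Rpl7 and Rpl24 were higher in fasted tissue (log2 fold changes of 0.50 and 0.43). The means of these 3 genes in fed tissue lay well within 1 SD of that of Lep. In fasted tissue its neighbours were the collagen gene Col5a1 and the co-chaperone gene Dnajb4 above, and the cytokine gene Il34 and the transcription factor gene Gabpb1 below. Their fed levels, from 7.70 FPKM (Gabpb1) to 51.33 FPKM (Col5a1) over single libraries, were all below the lowest fed Lep value.

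No tested gene had a deeper fall than Lep on the log2(FPKM + 1) scale. Pnpla3, encoding a lipid droplet enzyme of triglyceride remodelling, was close behind. Its fed libraries stood at 326.81, 470 and 289.33 FPKM and its fasted ones at 9.62, 7.72 and 15.3 FPKM, a change of -4.95 ± 0.26 (SE; limma adjusted p = 0.000188). The difference between the changes of Lep and Pnpla3 was smaller than the SE of either. Without fed replicate 2, the change of Lep was -4.61 and that of Pnpla3 -4.75, and without fasted replicate 2 they were -4.53 and -4.75, so that Pnpla3 then had the deeper fall. In the other 14 of the 16 fits Lep had it. Genes without a symbol and those with Gm or Rik names were left out of the choice of the next. These were Cdsn, encoding corneodesmosin (-4.04 ± 0.51), and Dgat2, the acyltransferase of the last step of triglyceride synthesis (-3.85 ± 0.39). The basement membrane collagen gene Col15a1 (-3.56 ± 0.32) and the oxytocin receptor gene Oxtr (-3.28 ± 0.25) followed. By the plain ratio of group means, Mogat2 (59.4) and Asb12 (36.6) were above Lep. They were picked out with their values in view, and their fasted means were 0.137 and 0.0767 FPKM, where 2-decimal values give little precision. By the ratio of the lowest fed to the highest fasted value, Pnpla3 (18.9) and D430019H16Rik (14.5), the latter also chosen after its values were seen, were above Lep (13.0).

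Lep was one of the genes that varied most between libraries of the same group. The highest value was 2.62 times the lowest in fed and 3.80 times the lowest in fasted tissue. The coefficient of variation was 53.2% in fed and 58.4% in fasted tissue. Among the 200 tested genes nearest to Lep in fed mean, the median coefficient of variation was 9.77%, and 3 genes exceeded Lep: Fasn (77.1%), Me1 (59.1%) and Tuba1a (63.2%), the first and second being enzymes of fatty acid synthesis and its NADPH supply. They were chosen after their values were seen. Among the 200 nearest in fasted mean the median was 14.3%, and none (0) of these 200 exceeded Lep. The within-group SD of Lep was 0.81 on the log2 scale, against a median of 0.20, and 27 of the 2999 tested genes had a larger one. By limma 46 tested genes, Lep among them, had a p as small as or smaller than that of Lep.

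**Figure D2:**
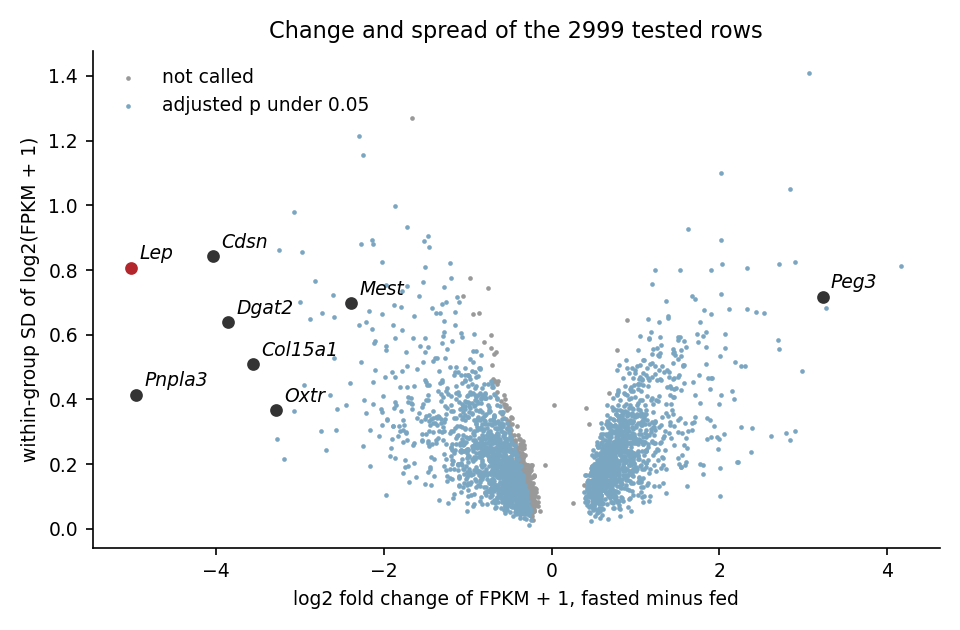
Log2 fold change of FPKM + 1 (fasted minus fed) against the within-group SD on the log2 scale for the 2999 tested genes, 1 point per gene, with genes past the adjusted p threshold in blue and others in grey. Lep (red) lies at -5.01 with an SD of 0.81, beside Cdsn at a similar spread and above Pnpla3 at a similar change.

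Lep was highest in fed replicate 2, 0.81 above its group mean on the log2 scale. In fasted tissue replicates 2 and 3 lay on either side of the mean, 0.96 below and 0.79 above. Of the other 1481 genes lower in fasted tissue, 932 (62.9%) also had their highest fed value in fed replicate 2, and 606 (40.9%) their lowest fasted value in fasted replicate 2. Fed replicate 2 was also the library in which Adam7, a gene of epididymal epithelium, was at 2.05 FPKM. Adam7 was 0.03 and 0.02 FPKM in the other fed libraries and 0 to 0.03 FPKM in the fasted ones, and was the only member held of 12 epididymal markers. Without fed replicate 2 the change of Lep was -4.61 (limma adjusted p = 0.00183).

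Lep fell more than the adipocyte identity genes held in the same libraries. Since no tested gene had a deeper fall, this order was fixed before the comparison, which gives only its size. Of 25 genes listed for adipocyte identity, 9 were held, and all 9 fell (49.4% of tested genes did), with a median log2 fold change of -1.17 against -0.34 over all tested genes. Aoc3, an amine oxidase gene of adipocytes, changed by -1.89 ± 0.21, the glycerol phosphate enzyme gene Gpd1 by -1.87 ± 0.36, the lipid droplet coat gene Plin1 by -1.17 ± 0.23, and Cebpa by -0.36 ± 0.14. The defining genes Adipoq, Fabp4, Lipe and Pparg were not analysed here. Set against the mean log2 level of these 9 genes, Lep stood at -0.24, 0.79 and -0.41 on the log2 scale when fed, and at -3.48, -4.56 and -3.36 when fasted. The groups did not overlap, and the difference was -3.85 (exact two-sided permutation p = 0.1, the smallest possible here). Of the 9 genes, 4 had a higher fed mean than Lep and all 9 had a higher fasted mean. Cebpa (limma adjusted p = 0.0428) missed the threshold under median-ratio scaling (adjusted p = 0.356), under quantile scaling (0.161), and when replicate 1 or 2 of either group was left out. Of the 9 falls, 7 passed with either scaling, and 3 passed over all annotated genes.

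Markers of other cell types moved in the same comparison, and their part in the change of Lep was not tested. Over all tested genes 41.1% rose and 49.4% fell. Of 14 endothelial markers 5 were held and all 5 rose, and their summed level was 458.5 to 469.02 FPKM in fed and 757 to 1053.73 FPKM in fasted libraries. Of 6 erythroid markers 5 were held and all 5 rose, from 1892.36 to 2799.78 FPKM summed in fed to 3955.43 to 10136 FPKM in fasted libraries, and 4 of the 5 passed when any 1 library other than fasted replicate 2 was left out. Although they rose, these 5 erythroid genes followed Lep within the groups (likeness, the correlation of deviations from the group means, of 0.79 to 0.86, median 0.81), against a median of -0.37 over the eligible genes that rose. They include the globin genes Hba-a1 and Hba-a2, near-identical copies whose reads may be split between them. Of 9 smooth muscle and pericyte markers 5 were held, of which 4 rose and Cspg4 fell, a fall not called under median-ratio scaling or when replicate 2 or 3 of either group was left out (summed 49.06 to 94.82 FPKM fed, 108.98 to 197.4 FPKM fasted). Of 14 fibroblast and progenitor markers 7 were held, of which 4 rose and 3 fell, 1 of them under median-ratio scaling (900.16 to 1193.26 FPKM fed, 1343.21 to 1959.86 FPKM fasted). Of 15 macrophage markers 2 were held, and Mpeg1 rose while Itgam fell (13.55 to 17.56 FPKM fed, 16.46 to 23.44 FPKM fasted). Of 9 brown and beige adipocyte markers 3 were held, of which Ppargc1a and Ppargc1b rose (0.83 to 2.43 FPKM summed in fed, 3.32 to 4.87 FPKM in fasted libraries). Of 10 T and NK cell markers 1 was held, at 0.15 to 0.23 FPKM in fed and 0.89 to 0.98 FPKM in fasted libraries. Adjusted over all annotated genes, 1 endothelial rise and 1 fibroblast and progenitor fall passed by limma, and no change (0) of the erythroid, smooth muscle and pericyte, macrophage or brown and beige markers did. Markers of B cells, mesothelium and skeletal muscle were not analysed here.

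Genes that followed Lep from library to library were sought by the correlation of each gene's deviations from its group mean with those of Lep over the 6 libraries, on the log2(FPKM + 1) scale. This likeness describes 6 libraries that all genes share, and it carries no test. Eligible genes averaged 5 FPKM or more and had a within-group SD of at least 0.25. Those without a symbol or with Gm or Rik names were left out. Of the 804 eligible genes, 409 fell, 349 rose and 46 were not called. The likeness of list members is given whatever their level or SD. Likeness was at least 0.9 for 23 of those that fell and for none (0) of those that rose. It was -0.9 or lower for 2 that fell and 19 that rose. Median likeness was 0.50 for genes that fell and -0.37 for genes that rose, and it was above 0 for 84.1% and 23.8% of them. In plain order, 83 of the other 1481 genes lower in fasted tissue (5.60%) ranked the libraries as Lep did in both groups, and 1 of 1232 higher genes did (0.0812%). The reverse order in both groups was held by 4 of the lower genes (0.270%) and 58 of the higher ones (4.71%). Over all 2998 other tested genes, 85 (2.84%) had the same order in both groups and 63 (2.10%) the reverse.

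The 8 genes most like Lep all fell, with likeness of 0.945 to 0.994. Phlda3, a p53 target that inhibits AKT, was the closest (0.994). Its fed libraries stood at 191.56, 326.74 and 146 FPKM and its fasted ones at 61.54, 33.96 and 100.96 FPKM, a change of -1.79 ± 0.42 (limma adjusted p = 0.00732). It was high where Lep was high and low where Lep was low in both groups, and the groups did not overlap. Adjusted over all annotated genes its p was 0.135, and Lhfpl2 (0.0840), Tenm4 (0.0540) and Sucnr1 also missed the threshold. The others were Lrrc39 (0.979), Lhfpl2 (0.978), the actin-binding gene Synpo2 (0.973), the teneurin gene Tenm4 (0.969), the succinate receptor gene Sucnr1 (0.963), Pnpla3 (0.959) and the heat shock protein family gene Hspa12a (0.945). Their log2 fold changes, Pnpla3 aside, ran from -0.89 (Sucnr1) to -2.30 (Tenm4), well short of that of Lep. The 4 most opposite all rose: Fam107a (-0.996), the pyrimidine catabolism gene Dpyd (-0.973), the F-box gene Fbxo31 (-0.972) and the salt-inducible kinase gene Sik3 (-0.970). Fbxo31 was 18.61, 10.18 and 18.24 FPKM in fed and 107.23, 161.84 and 66.29 FPKM in fasted libraries: fed replicate 2, with the highest Lep, had its lowest value, and fasted replicate 2, with the lowest Lep, its highest. The rise of Fam107a (1.16 ± 0.37) was not called without fed replicate 2 (adjusted p = 0.0605) or fasted replicate 2 (adjusted p = 0.0540).

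**Figure D3:**
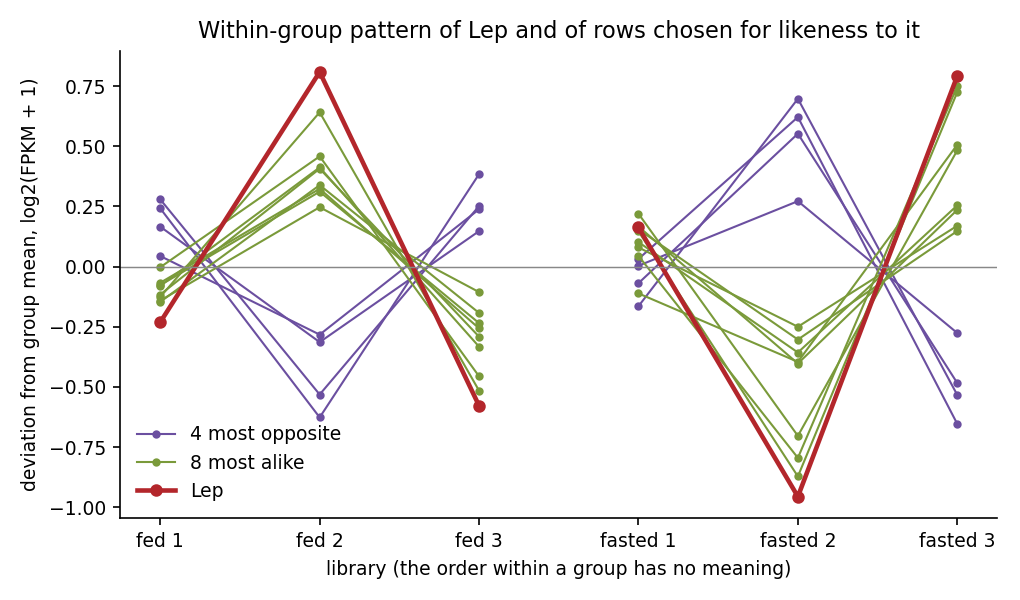
Deviation of log2(FPKM + 1) from the group mean in each library for Lep (red), the 8 genes most like it (green) and the 4 most opposite (purple). Lep was 0.81 above its group mean in fed replicate 2 and 0.96 below it in fasted replicate 2, and the genes were chosen for following or opposing that pattern.

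Of the leptin receptor and its signalling genes, 3 of 28 listed were held, and Lepr, Socs3 and Stat3 were not analysed here. Pik3r1, a regulatory subunit of phosphatidylinositol 3-kinase, was 73.64, 54 and 57.08 FPKM in fed and 17.58, 16.13 and 17.66 FPKM in fasted libraries (log2 fold change -1.78 ± 0.14). The phosphatase gene Ptpn11 also fell (-0.74 ± 0.12), and Irs2, an insulin receptor substrate gene, rose (0.72 ± 0.15). None of these 3 followed Lep within the groups (likeness of -0.05, -0.21 and 0.10).

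Known regulators of Lep transcription went both ways. Of 29 listed, 9 were held, of which 6 fell and 3 rose, while 49.4% of tested genes fell and 41.1% rose. The list median was -0.36, against -0.34 over all tested genes. Srebf1, encoding the lipogenic factor SREBP1, was 106.99, 113.89 and 96.81 FPKM in fed and 38.34, 26.04 and 45.17 FPKM in fasted libraries (-1.54 ± 0.20; limma adjusted p = 0.00132), with a likeness to Lep of 0.91. Likeness went both ways in this list: Rxra, which fell (-0.35 ± 0.12), had -0.90, and of the rises Nfyb had 0.85 and Klf4 -0.92. Mlxipl, encoding the carbohydrate-sensing factor ChREBP, fell (-0.85 ± 0.11). Cebpa, encoding C/EBPα, was 493.31, 463.38 and 404.21 FPKM in fed and 329.19, 325.55 and 406.87 FPKM in fasted libraries. Its groups overlapped, since fasted replicate 3 was above fed replicate 3. The rises were Arnt, the partner of the hypoxia factor HIF1α (0.76 ± 0.12), Nfyb, a subunit of the CCAAT-binding factor NF-Y (0.60 ± 0.12), and Klf4 (0.88 ± 0.27). Under median-ratio scaling 2 falls passed, under quantile scaling 4, and without replicate 1 of either group 3. Leaving out fasted replicate 1 or 2 left 2 rises. Adjusted over all annotated genes, 2 falls and 1 rise passed.

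Insulin and mTORC1 signalling raise leptin production in fed adipocytes. Among all tested genes 41.1% rose and 49.4% fell (median -0.34). Of 32 insulin and mTORC1 genes listed, 14 were held, with 8 rises and 6 falls (median 0.51). The rises included brakes of mTORC1: Ddit4 was 26.51, 27.25 and 33.23 FPKM in fed and 137.13, 195.16 and 137.46 FPKM in fasted libraries (2.38 ± 0.17; limma adjusted p = 0.000314), and Sesn1 (1.08 ± 0.22) and Tsc1 (0.44 ± 0.13) rose less. The insulin receptor gene Insr rose as well (0.69 ± 0.14), with a likeness to Lep of -0.86. Deptor, encoding another mTOR inhibitor, fell (-1.27 ± 0.25), as did Slc2a4, the insulin-responsive glucose transporter gene (-0.96 ± 0.14), and Grb14 (-1.53 ± 0.25), an adaptor that inhibits the insulin receptor. With all annotated genes counted, 1 rise and 2 falls passed. With median-ratio scaling 4 falls passed.

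Adrenergic and cAMP signalling lowers Lep transcription. Among all tested genes 41.1% rose and 49.4% fell. Of 22 adrenergic and cAMP genes listed, 9 were held, with 4 rises, 4 falls and 1 not called (Gnai2 at -0.18). The median was -0.18, and it was 0.02 under median-ratio and 0.08 under quantile scaling, so its sign turned. The protein kinase A subunit genes Prkar2b (-1.47 ± 0.19) and Prkaca (-0.71 ± 0.13), the receptor gene Adrb1 (-0.74 ± 0.25) and the G protein gene Gnai1 (-0.74 ± 0.20) fell. The phosphodiesterase genes Pde4d (1.82 ± 0.42) and Pde3b (0.72 ± 0.18), whose products break down cAMP, and the adenylate cyclase gene Adcy3 (0.57 ± 0.13) rose. Nr4a3 rose as well (1.23 ± 0.49; limma adjusted p = 0.0431). Pde4d was highest in fasted replicate 2 (16.86 FPKM, against 7.17 and 4.76 in the other fasted libraries), the library with the lowest Lep. Adrb3, the main beta-adrenergic receptor gene of rodent fat, was not analysed here. Adjusted over all annotated genes, 1 fall and no rise (0) of this list passed by limma.

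Other hormones and factors secreted by fat were mostly lower, and none fell as deeply as Lep, which had the deepest fall of all tested genes. Of 49 listed genes other than Lep, 23 were held and 22 tested, of which 17 fell, 4 rose and 1 was not called (median -0.89). Over all tested genes 49.4% fell and 41.1% rose (median -0.34). In fed tissue 7 of the 23 had a higher mean FPKM than Lep, and in fasted tissue 14 did. Retn, encoding resistin, was called here but not under median-ratio or quantile scaling (adjusted p = 0.0752 and 0.0652): it was 4785.84, 3761.02 and 3920.29 FPKM in fed and 2708.56, 2669.62 and 2894.51 FPKM in fasted libraries (-0.58 ± 0.15). Hp, encoding haptoglobin, changed by -2.02 ± 0.22, Orm1, an acute-phase gene with close copies whose reads may be split between them, by -2.14 ± 0.38, and Sfrp5, a Wnt antagonist gene, by -2.12 ± 0.53. The rises were Fst, encoding follistatin (1.31 ± 0.24), Cxcl12 (0.95 ± 0.17), Apoe (0.90 ± 0.22) and Adm, encoding adrenomedullin (0.82 ± 0.21). Adipoq and Cfd, encoding adiponectin and adipsin, were not analysed here. Under median-ratio scaling 11 falls passed. There were 10 without fasted replicate 2 and 11 without fasted replicate 1 or fed replicate 3, and 3 falls and no rise (0) passed by limma over all annotated genes.

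Genes tied to fat mass and adipocyte size were the list with the lowest median. The list was chosen with earlier results of these data known. It holds Dgat2 and Oxtr, which are among the 5 deepest falls named after Lep, so its low median describes the genes chosen. Of 24 listed, 14 were held, of which 13 fell and 1 rose, while 49.4% of tested genes fell. The median was -2.06, against -0.34 over all tested genes. These genes were listed for ties to adipocyte size or to the growth of the depot. Whether their changes here followed fat mass was not tested. Mest, an imprinted gene that marks fat expansion, was 82.08, 89.91 and 43.47 FPKM in fed and 17.49, 5.93 and 17.17 FPKM in fasted libraries (-2.39 ± 0.42; limma adjusted p = 0.00334), and it was lowest in the libraries where Lep was lowest (likeness 0.87). Npr3, the natriuretic peptide clearance receptor gene, was 116.32, 211.95 and 85.55 FPKM in fed and 24.9, 15.33 and 22.14 FPKM in fasted libraries (-2.60 ± 0.33; likeness 0.85). The caveolin genes Cav1 (-1.97 ± 0.13) and Cav2 (-1.76 ± 0.19) and the autophagy regulator gene Trp53inp2 (-2.13 ± 0.29) fell, with likeness of 0.73, 0.83 and 0.85. Nnat (from a mean of 2340 to 572 FPKM) and Steap4 (-2.57 ± 0.21) also fell but did not follow Lep within the groups (likeness of -0.003 and -0.03). Peg3, an imprinted zinc finger gene, was the 1 that rose (3.23 ± 0.43), with a likeness of -0.64. Over the 14 genes likeness to Lep was above 0 for 11, with a median of 0.69, beside 84.1% above 0 and a median of 0.50 over all eligible genes that fell. Falls stayed at 12 or 13 with each library left out and with either scaling, and 8 falls and 1 rise passed over all annotated genes.

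**Figure D4:**
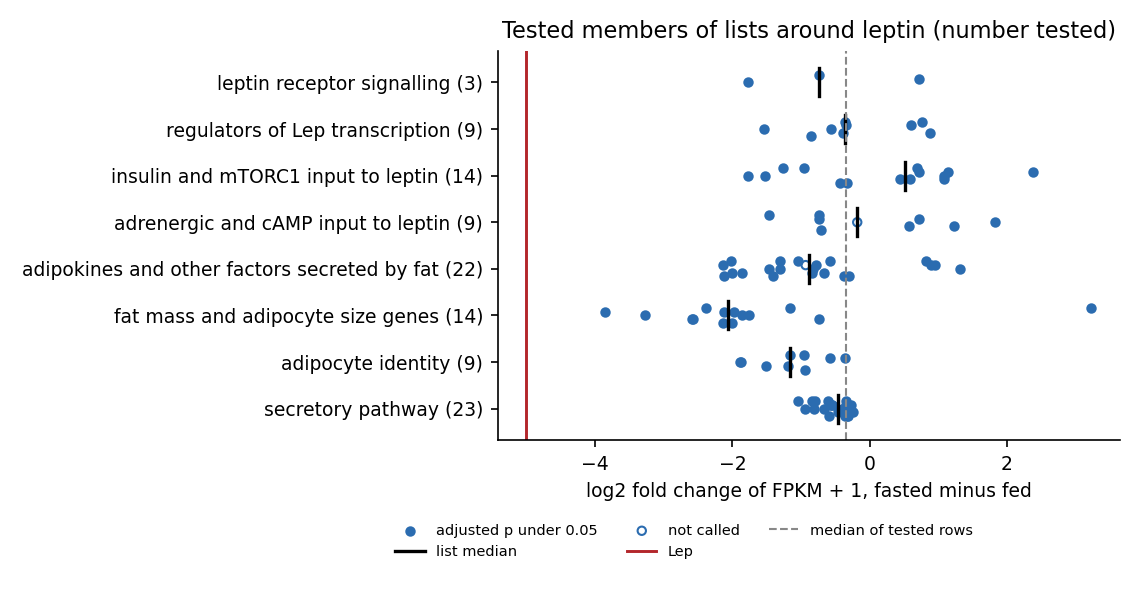
Log2 fold change of FPKM + 1 (fasted minus fed) of the tested members of 8 lists, 1 point per gene, with filled points for an adjusted p under 0.05, a black bar at the list median, a red line at Lep (-5.01) and a dashed line at the median of all tested genes (-0.34). Every member lies to the right of Lep, and the list of fat mass and adipocyte size genes has the lowest median (-2.06). The lists were chosen with earlier results of these data known.

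Leptin leaves the cell through the secretory pathway, and genes of that pathway fell by small amounts. Of 44 listed, 23 were held and all 23 fell (49.4% of tested genes did), from -0.25 to -1.05. Their median was -0.46, against -0.34 over all tested genes. The 3 named by the rule were the ER chaperone genes Hspa5 (-1.05 ± 0.14) and Calr (-0.94 ± 0.16) and the disulfide isomerase gene Pdia6 (-0.79 ± 0.12). Under median-ratio scaling 10 falls passed and under quantile scaling 11; these scalings moved the median change of all tested genes from -0.34 to -0.15 and -0.21, and 2 passed over all annotated genes. Median likeness to Lep was -0.09.

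Around Lep, 8 of the 28 protein-coding genes annotated within 1 Mb were held, of which 7 fell and 1 rose. Over all tested genes 49.4% fell and 41.1% rose. None of the 8 came near the change of Lep. Rbm28, a ribosome biogenesis gene whose nearer end lies 49.7 kb away, was 40.94, 48.63 and 27.74 FPKM in fed and 11.92, 10.47 and 10.05 FPKM in fasted libraries (-1.73 ± 0.20; limma adjusted p = 0.000997). On the other side Snd1, 125 kb away, was at -0.26 ± 0.11 (adjusted p = 0.0454), a call lost in 9 alternatives besides the adjustment over all annotated genes, median-ratio scaling (adjusted p = 0.613) among them. Ahcyl2 (-1.06 ± 0.19), Strip2 (-0.63 ± 0.16) and Calu (-0.61 ± 0.12) fell, and Fam71f2 rose from 0.853 to 2.41 FPKM (0.86 ± 0.19). Tnpo3 (-0.41 ± 0.11) and Smo (-0.39 ± 0.13) were called, but not with median-ratio scaling (adjusted p = 0.178 and 0.200) or quantile scaling (0.0630 and 0.0813). Leaving out fasted replicate 1 or 2, or fed replicate 2 or 3, also ended the call for Smo. Hilpda, a lipid droplet gene in this interval, was not analysed here. Within the groups none of the 8 had a likeness to Lep above 0.52.

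**Figure D5:**
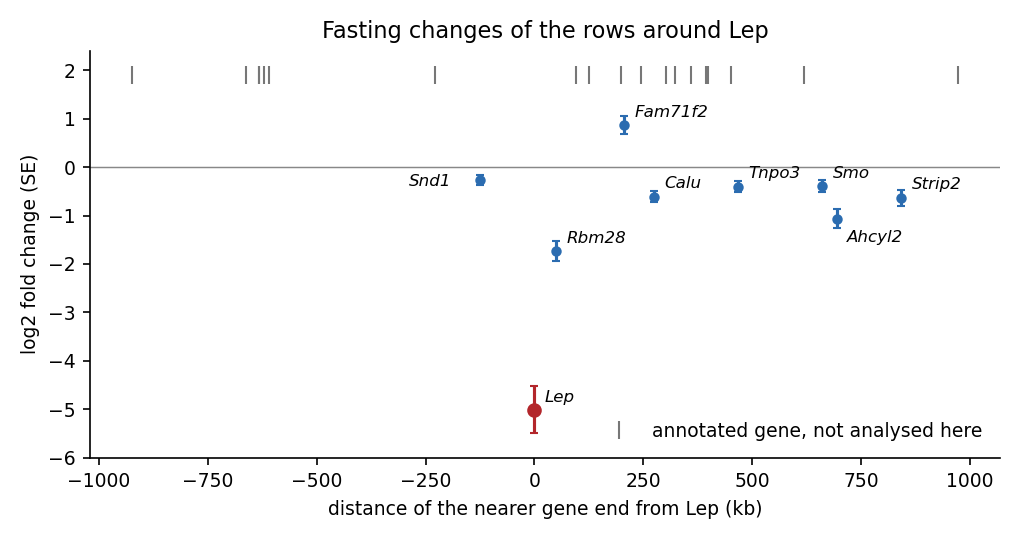
Log2 fold change of FPKM + 1 (points, error bars of 1 SE) against the distance of the nearer gene end from Lep in kb, for Lep (red) and the 8 genes held within 1 Mb, with grey ticks for annotated protein-coding genes not analysed here. Lep at -5.01 lies far below its neighbours, of which Rbm28 at -1.73 is the lowest.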

How the data were processed

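FPKM values of 3 fed and 3 fasted mice were used as deposited by the authors, per the file headers, with 2 decimals. The submitters' processing notes name RSEM, mm10 and GRCm38.p6; the aligner and tool versions are not stated in them. Depth is unknown. Identifiers were matched to GENCODE M21 (GRCm38): 3158 of 3162 matched. The 2999 genes with a mean over the 6 libraries of 1 FPKM or more were tested with limma 3.58.1 in R 4.3.3 on log2(FPKM + 1), with a variance trend, two-sided, adjusted by Benjamini-Hochberg over all 2999 at 0.05. This scale understates changes of low genes. Single values were tested by exact permutation in SciPy 1.17.1. The fit was also run on simulated data in which all genes had the same spread and few changed. The real table differs in both, so that run bears on the code and not on the results here. Whether counting used strand is not stated. Each library is taken to be 1 mouse, which the labels do not state outright; if not, p-values measure only the spread between these samples, which may be technical.

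Named genes were Lep, the 8 most like and 4 most opposite to it within groups, the 2 genes either side of it in mean level per group, the 5 deepest falls after it, up to 3 of each list with the smallest p plus lone dissenters, genes within 1 Mb, and a few named whatever their result; 1 of these genes is not reported here. Genes without a symbol and those with Gm or Rik names were left out of the choices by likeness, level and depth of fall. Other genes named are list members or are marked as chosen after their values were seen. The gene, the 8 pathway and 11 marker lists and the motifs were chosen with earlier results of these data, or the sequence, known. Alternatives were other pseudocounts, filters, scalings, variance models, a wider adjustment, and each library left out.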

Additional observations from a re-analysis of the deposited data

How the results depend on the processing

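The fall of Lep kept its direction and its call in each of the 15 alternative limma fits, with log2 fold changes from -5.41 to -4.53; over the libraries left out it ran from -5.41 (without fasted replicate 3) to -4.53 (without fasted replicate 2). The exact permutation test gave the same -5.01 at p = 0.1, since 3 against 3 libraries cannot go lower. Against the adipocyte identity genes the change was -3.45 to -4.07 over pseudocounts and left-out libraries. Over all annotated genes, 172 genes were higher and 192 lower, and with median-ratio scaling 787 were lower. The number of genes with a likeness to Lep of at least 0.9 was 14 with median-ratio scaling, and 38 to 72 with each library left out, when fewer libraries give higher correlations by construction. Of 75 other named genes none (0) reversed, and 42 lost their call over all annotated genes, where more genes are counted. The pseudocount and left-out libraries for the comparison with adipocyte genes, and the left-out libraries for likeness, were chosen after seeing the data. No paired analysis was possible because the labels number no replicates: the numbers used here only name the libraries in order of deposit, and nothing ties a fed to a fasted mouse.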
